A study of Drosophila melanogaster with 15 samples.

Results

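Embryos frozen 90 min after a low dose of gamma rays were compared with embryos that received none. The comparison used 6 of the 15 arrays of a time course in Drosophila melanogaster, chosen by their labelled time and dose. The 90 min group held 3 pools of w[1118] embryos given 500 µGy at 22.4 mGy/h, and the control group held 3 pools of w[1118] embryos at 0 µGy. w[1118] is a white-eyed laboratory strain, and no group carried another allele or agent. Eggs were collected over 1 h, embryos from 6 bottles were pooled, and all were frozen at the labelled age of 3 to 4 h after 3 h at 23 °C. From the dose and rate the exposure lasted 1.34 min, and from the age and interval the embryos were 1.5 to 2.5 h old when irradiated. The other 9 arrays held embryos frozen 5, 30 or 60 min after the same dose, with 3 pools each. They were frozen at the same labelled age, so embryos with a shorter interval were older when irradiated.

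In the fly embryo, RNA loaded by the mother drives the first, syncytial nuclear divisions. The zygotic genome then takes over while cells form and gastrulation begins, and maternal transcripts are degraded as transcripts of the gap, pair-rule and segment polarity genes set up the body plan. After ionizing radiation at far higher doses, fly p53 is known to raise transcripts of cell death genes such as skl and of DNA repair genes such as Ku80 and mre11.

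The 6 arrays fell into 2 sets that crossed the groups. Biotin-labelled spike-in RNAs, which are normally added to the hybridization in a fixed amount and do not come from the embryo, had mean log2 levels of 10.81, 11.52 and 11.36 in 90 min A, B and C, against 10.81, 10.72 and 11.60 in control A, B and C. Split at the widest gap over all 15 arrays, 0.27 on the log2 scale, 90 min A lay with control A and B in a lower spike-in set, and 90 min B and C lay with control C in a higher one. Over the 5636 bright probe sets, those with a mean log2 intensity of 8 or more over the 15 arrays, the 6 pairs of arrays within a set correlated at a median of 0.936. The 9 pairs across the sets correlated at a median of 0.706. The spike-in set therefore separated the arrays more than the treatment did, since 90 min A correlated at 0.956 and 0.967 with control A and B and at 0.661 and 0.747 with 90 min B and C. The log2 ratio of the actin probes at the 3′ and 5′ end, a measure of RNA integrity, was 1.55, 1.73 and 1.94 in the 90 min arrays, against 1.61, 1.29 and 1.54 in the controls. For GAPDH it was 0.88, 1.20 and 1.12 in the 90 min arrays, against 0.78, 0.54 and 0.91 in the controls. The part of RNA integrity in the differences below was not tested. For the spike-in sets, values are given for 3 against 3 arrays, with the spike-in set as a block in the fit, and within each set.

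**Figure D1:**
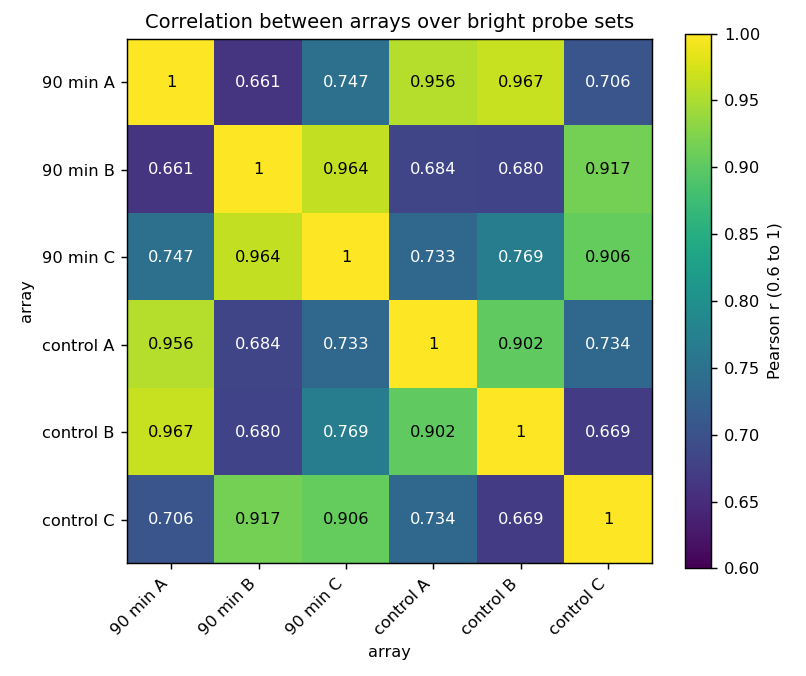
Pearson correlation between the log2 intensities of the 3 arrays at 90 min and the 3 control arrays (rows and columns) over 5636 bright probe sets; the colour scale runs from 0.6 to 1. 90 min A resembled control A and B (0.956 and 0.967), and 90 min B and C resembled each other (0.964) and control C (0.917 and 0.906).

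No gene passed the test between 90 min and control. Of 18769 probe sets, 0 had an adjusted p under 0.05 in limma (0.0%), and 0 of the 5636 bright ones (0.0%). The smallest adjusted p was 0.999. At an unadjusted p under 0.05 there were 505 probe sets, 17 of them bright (0.302% of the bright ones). The half-width of the 95% interval of a log2 difference, not adjusted for the number of probe sets, had a median of 1.01 over bright probe sets and 1.62 over all. Over bright genes the differences between 90 min and control were nearly balanced in direction. Of 4776 bright genes 2480 (51.9%) were higher, with a median of 0.02, and 45.9% were higher with the spike-in set as a block. Over all probe sets 55.6% were higher, with a median of 0.09, and 53.2% with the block. Every gene named from here on had an adjusted p of 0.999 in limma for 90 min against control, so the differences are values and not calls. They are log2 differences of intensity, 90 min minus control, with the standard error (SE) of the fit.

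Differences within the lower spike-in set (90 min A minus the mean of control A and B) and within the higher set (the mean of 90 min B and C minus control C) did not share a direction for most genes. Their signs matched in 1928 of 4776 bright genes (40.4%), and their correlation across genes was -0.30; genes are not independent replicates. Differences of at least 1 were seen in 240 bright genes over 3 against 3 arrays and in 51 with the spike-in set as a block. hb, the gap gene that patterns the anterior of the embryo, had intensities of 4093, 319.4 and 576.5 at 90 min, against 3370, 3657 and 719.9 in controls. It was low in every array of the higher spike-in set, irradiated or not. Its difference was -1.18 ± 1.05 (SE), and -0.39 with the block. Stat92E, a signal-dependent transcription factor, was likewise low in the 3 arrays of the higher set, with 4880, 382.8 and 666.5 at 90 min, against 4194, 4544 and 551.7 in controls. There control C was the lower of control C and 90 min C, the opposite of hb.

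**Figure D2:**
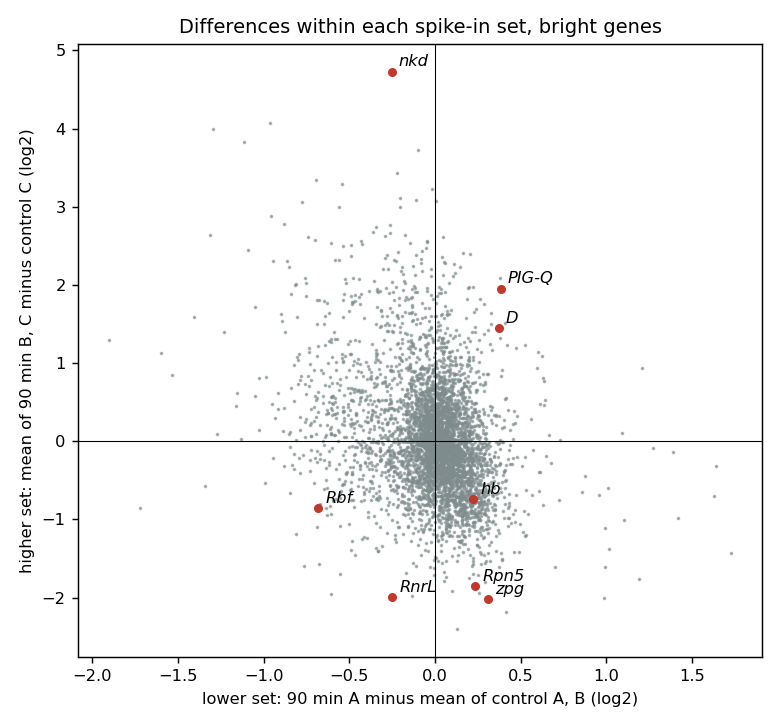
Each grey point is 1 of 4776 bright genes, placed by its log2 difference within the lower spike-in set (x axis) and within the higher one (y axis), both as 90 min minus control; named genes are red. The 2 differences had the same sign in 40.4% of genes; PIG-Q and D lay above 0 on both axes, and Rbf and RnrL below 0 on both.

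Few bright probe sets had 3 irradiated values wholly apart from the 3 controls. All 3 arrays at 90 min lay above all 3 controls for 44 of 5636 bright probe sets (0.781%) and below them for 17 (0.302%). Over all 18769 probe sets the counts were 795 higher (4.24%) and 286 lower (1.52%), and after quantile normalization 611 higher and 501 lower. Compared only with controls of the same spike-in set, the arrays at 90 min lay above them in 293 bright probe sets (5.2%) and below them in 177 (3.14%). The genes in the next paragraphs are the 10 in each direction with the smallest p among bright genes whose groups did not overlap.

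PIG-Q, a subunit of the enzyme that begins the synthesis of membrane anchors made of glycosylphosphatidylinositol, had the smallest p of the higher genes. Its intensity was 914.1, 1643 and 1251 at 90 min A, B and C, against 655.3, 748.2 and 370.1 in control A, B and C. The lowest array at 90 min was above the highest control. The difference was 1.12 ± 0.36 (SE, n = 3 each; 95% interval 0.36 to 1.88; unadjusted p = 0.00653 and adjusted p = 0.999 in limma), and 1.07 with the spike-in set as a block. It was 0.38 in the lower set and 1.95 in the higher set. The same gene stood at 0.52, 0.61 and 0.85 above control at 5, 30 and 60 min; all times share the 3 control arrays.

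pasi1, which codes for a membrane protein of the septate junctions that seal epithelia, had 2036, 3933 and 3997 at 90 min, against 1803, 1997 and 1787 in controls. The 3 controls were close together, and 90 min A was nearer to them than 90 min B and C were. The difference was 0.77 ± 0.32 (SE), with 0.10 in the lower set and 1.15 in the higher. Nf-YB, a subunit of the factor that binds CCAAT boxes, had 1325, 1851 and 1860 at 90 min, against 1071, 1243 and 898.4 in controls, a difference of 0.64 ± 0.29. Atf6, a transcription factor released by stress of the endoplasmic reticulum, had 872.1, 855.8 and 1497 at 90 min, against 809.3, 804.6 and 235 in controls. Here control C alone was far below the rest, and the difference was 0.95 ± 0.46, with 0.11 in the lower set and 2.26 in the higher.

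M6, a proteolipid protein of the cell membrane, had 665.8, 882.3 and 1170 at 90 min, against 577.9, 499.1 and 558.9 in controls. The difference was 0.70 ± 0.34 (SE), 0.31 in the lower set and 0.86 in the higher. Ate1, the enzyme that adds arginine to proteins and so marks them for degradation, had 2678, 3463 and 3574 at 90 min, against 2225, 2405 and 2467 in controls. Both genes had all controls within a narrow band and 90 min A nearest to it. The difference of Ate1 was 0.44 ± 0.26, against 0.08, 0.05 and 0.26 at 5, 30 and 60 min.

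MCTS1, a factor for re-starting translation, differed by 0.88 ± 0.53 (SE), with 546.9, 659.7 and 674.1 at 90 min, against 471.6, 439.7 and 187.7 in controls. Its low control C gave 1.82 in the higher set, against 0.26 in the lower. The 3 other genes of this kind are known here only by their CG numbers. CG15111 differed by 0.62 ± 0.29, CG18764 by 0.56 ± 0.32 and CG5708 by 0.52 ± 0.26. CG5708 had 3418, 3835 and 4361 at 90 min, against 2758, 2828 and 2461 in controls, and differed by 0.01, 0.10 and 0.30 at 5, 30 and 60 min. All 10 higher genes had positive differences in both spike-in sets, which follows from groups that do not overlap.

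Among the 10 lower genes were 2 subunits of the 19S cap of the proteasome. Rpt5, an ATPase of its base, had 972.6, 854.9 and 720.9 at 90 min, against 2049, 984.2 and 1220 in controls. Rpn1, a scaffold and receptor subunit, had 748.8, 601 and 569.8 at 90 min, against 1400, 787.2 and 768.1 in controls. In both genes control A was far above the other arrays. The difference was -0.68 ± 0.43 (SE) for Rpt5 and -0.57 ± 0.44 for Rpn1. It was alike within the sets, at -0.55 in the lower set and -0.64 in the higher set for Rpt5, and at -0.49 and -0.39 for Rpn1.

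okr, the fly Rad54 protein that acts in recombinational repair of DNA breaks, had 676.4, 533.1 and 496.2 at 90 min, against 682.8, 722.3 and 769 in controls. 90 min A was only just below control A, and the difference was -0.36 ± 0.33 (SE), with -0.05 in the lower set and -0.58 in the higher. pcm, the exoribonuclease that degrades RNA from its 5′ end, had 1830, 1397 and 1579 at 90 min, against 1935, 2050 and 2305 in controls, a difference of -0.39 ± 0.31. Cap-G, a subunit of the condensin complex that compacts mitotic chromosomes, had 678.4, 548.2 and 762.5 at 90 min, against 1185, 950.3 and 764.5 in controls. Its gap was narrow, since 90 min C and control C were almost equal, and the difference was -0.53 ± 0.36.

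The glycolytic enzyme aldolase, Ald1, had the tightest controls of the 10 lower genes. It stood at 3801, 3110 and 3190 at 90 min, against 4098, 4026 and 4138 in controls. The difference was -0.29 ± 0.23 (SE), a fold of 0.821, and it was -0.11, -0.07 and -0.10 at 5, 30 and 60 min. A second, dimmer probe set of Ald1 differed by -0.15. Pgm2a, of the phosphoglucomutase family, differed by -0.24 ± 0.24, and CSN6, a subunit of the COP9 signalosome that regulates ubiquitin ligases, by -0.28 ± 0.24. Against control, CSN6 differed by 0.20, -0.10 and 0.04 and Pgm2a by 0.17, -0.00 and 0.03 at 5, 30 and 60 min, so neither lay as far below control at the earlier times. CG9577 and CG3803 differed by -0.58 ± 0.40 and -0.44 ± 0.40.

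**Figure D3:**
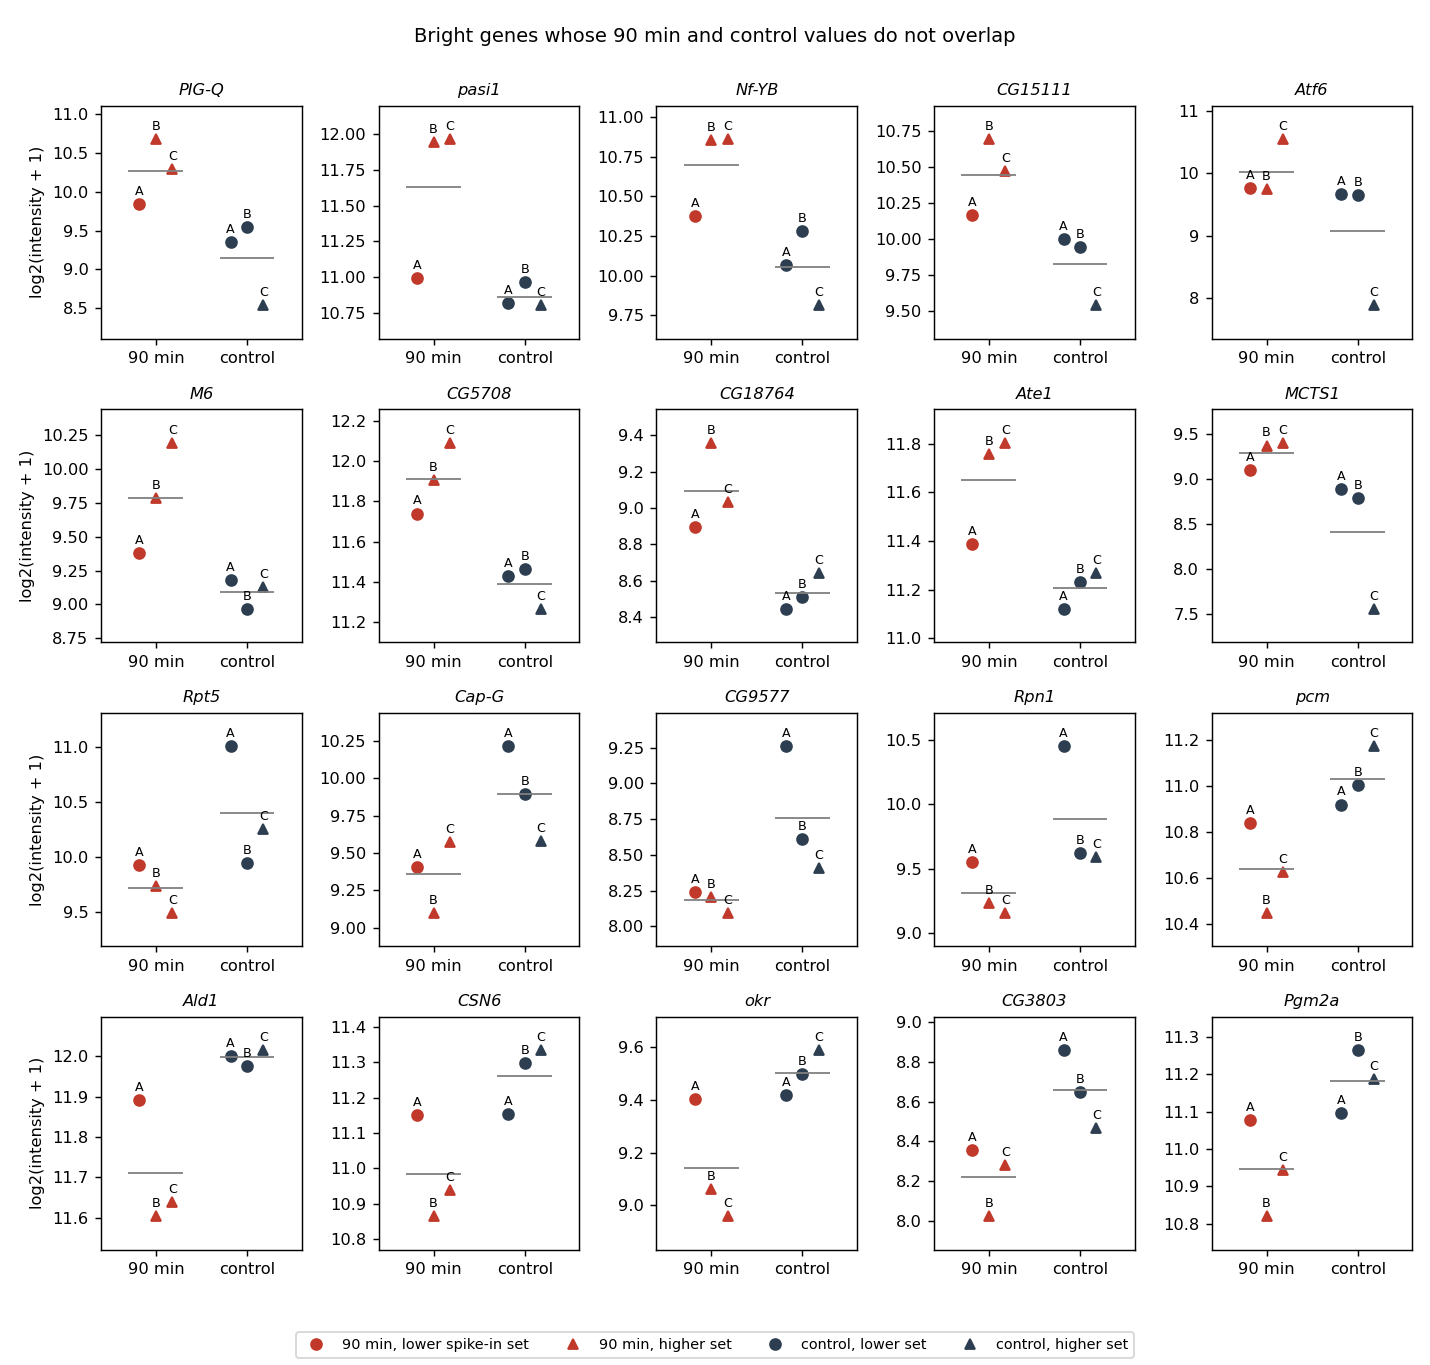
Log2(intensity + 1) of the 20 bright genes whose 3 values at 90 min (red, left) did not overlap the 3 controls (dark, right) and had the smallest p; circles mark the lower spike-in set, triangles the higher, letters the replicate and lines the group mean. In Atf6 and MCTS1 control C sat far below the other controls, and in Rpt5 and Rpn1 control A sat above them; in pasi1, M6 and Ald1 the controls lay close together.

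Genes of the p53 radiation response did not share a direction by value. Of 15 genes on the list, 11 had a probe set with 1 symbol and 7 were bright; rpr, hid, Xrp1 and RnrS had none and are not analysed here. Of those 7, 4 were higher and 3 lower, 0 were called, 0 had groups that did not overlap, and the median was 0.13, against 0.02 for all bright genes. It was 0.13 with the block too, but -0.25 in the lower set and -0.02 in the higher. Over all bright probe sets only 0.781% lay wholly above and 0.302% wholly below the controls, so 0 of 7 says little about these genes. The cell death activators come first. skl, which neutralizes the caspase inhibitor Diap1, had a mean log2 intensity under 8, with 143.1, 133.2 and 154.7 at 90 min, against 90.38, 188.1 and 55.01 in controls. The 3 arrays at 90 min lay inside the range of the controls, and the difference was 0.55 ± 0.61 (SE). grim, another gene of this family, was near background in all 6 arrays, at 11.51, 12.80 and 15.44 at 90 min, against 11.59, 3.375 and 5.135 in controls. Its difference was 1.02 ± 0.79.

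egr, the fly ligand of the tumour necrosis factor family, had 644.8, 195.4 and 121.1 at 90 min, against 534.1, 1095 and 82.3 in controls. Its arrays were ordered by spike-in set and not by treatment: the difference was -0.55 ± 1.0 (SE), and 0.18 with the set as a block. Traf4, an adaptor that acts below such receptors, had 1565, 1878 and 1941 at 90 min, against 1245, 2874 and 412.2 in controls. The controls spanned the arrays at 90 min on either side. The difference of 0.65 ± 0.68 was -0.27 in the lower set and 2.21 in the higher.

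RnrL, the large subunit of ribonucleotide reductase, which makes the building blocks of DNA, had the lowest difference of the list. Its intensity was 2717, 1080 and 1145 at 90 min, against 4689, 2223 and 4439 in controls. 90 min A was above control B, so the groups overlapped. The difference was -1.26 ± 0.47 (SE, n = 3 each; 95% interval -2.26 to -0.26; unadjusted p = 0.0171 and adjusted p = 0.999 in limma), with -0.25 in the lower set and -2.0 in the higher. It stood at -1.13, -0.95 and -1.39 at 5, 30 and 60 min, against the same controls.

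The repair genes Ku80 and Irbp code for the subunits of the Ku complex that holds broken DNA ends. Ku80 had 162.1, 569.1 and 320.5 at 90 min, against 259.8, 155.2 and 559.5 in controls. It was highest in 90 min B and control C and showed no order by treatment, with a difference of 0.13 ± 0.57 (SE). Irbp, which was dim, had 284.4, 322.6 and 143.9 at 90 min, against 734.3, 216.6 and 432.4 in controls, a difference of -0.79 ± 0.54. mre11, a nuclease that processes broken ends, had 2089, 796.8 and 887.8 at 90 min, against 1752, 2385 and 1102 in controls, a difference of -0.55 ± 0.55. Within the sets mre11 was at 0.03 in the lower and -0.39 in the higher.

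p53 itself varied little, with 1952, 2014 and 2421 at 90 min, against 1590, 1668 and 2247 in controls, a difference of 0.22 ± 0.34 (SE). Corp, which lowers p53 protein, had 921.7, 1090 and 768.6 at 90 min, against 749.6, 603.6 and 894.8 in controls, a difference of 0.31 ± 0.33. In both genes the groups overlapped through control C. Ets21C, a transcription factor of stress responses, was near background, at 5.995, 5.572 and 14.05 at 90 min, against 23.68, 3.812 and 24.23 in controls. Its difference was -0.70 ± 0.94.

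**Figure D4:**
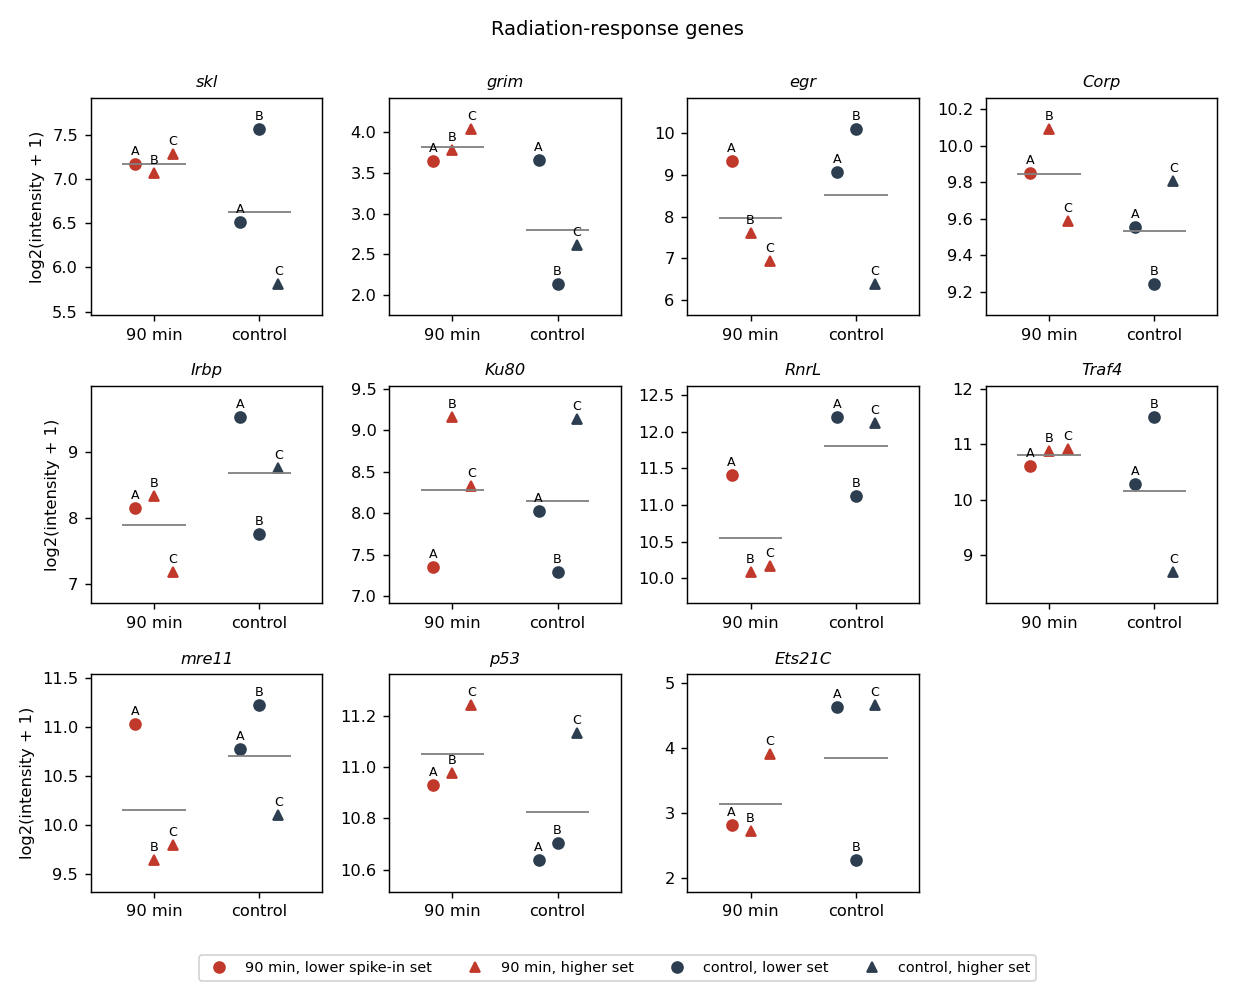
Log2(intensity + 1) of the 11 measured radiation-response genes at 90 min (red, left) and in controls (dark, right), with circles for the lower and triangles for the higher spike-in set, letters for replicates and lines for group means. All 11 pairs of groups overlapped; RnrL was low in 90 min B and C, and egr and mre11 were low in 90 min B, 90 min C and control C.

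Genes that repair and copy DNA were mostly lower by value, with 0 called. All 10 bright genes of the DNA repair list were lower, with a median of -0.54 and differences from -1.28 to -0.30, against a median of 0.02 and 51.9% higher over all bright genes. With the spike-in set as a block the median was -0.31, and 9 of the 10 were lower. The median was -0.06 in the lower set and -0.59 in the higher set, which holds a single control array. In both sets 5 of the 10 were lower and 0 higher. Over all bright genes 40.4% had the same sign in both sets, in either direction. Pms2, a mismatch repair protein, had 971.2, 152.4 and 260.3 at 90 min, against 926.1, 704.4 and 542.4 in controls. 90 min A was above every control while 90 min B and C were below them. Msh6, its partner in recognizing mismatches, had 625.1, 144.1 and 148.4 at 90 min, against 966.7, 486.9 and 200.3 in controls, a difference of -0.94 ± 0.81 (SE). The 6 bright genes of the damage signalling list, around the kinases tefu and mei-41, had a median of -0.39 and 1 higher member. The median was -0.16 with the block, 0.17 in the lower set and -0.49 in the higher. The higher member, Hus1-like, part of the clamp that loads at damaged DNA, differed by 0.49 ± 0.37.

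The replication list had 27 bright genes, of which 17 were lower and 10 higher, with a median of -0.19. Its median was alike in the spike-in sets, at -0.17 with the block, -0.17 in the lower set and -0.22 in the higher. In both sets 17 genes were lower and 2 higher, where 40.4% of all bright genes had matching signs in either direction. Each within-set value rests on a lone array, and the genes are not independent. Mcm2, a subunit of the replicative helicase, had 3417, 2838 and 3108 at 90 min, against 4113, 3260 and 5193 in controls. 90 min A alone exceeded a control, and the difference was -0.40 ± 0.31 (SE). Mcm10, which helps the helicase to open the origin, had 2344, 370.9 and 405.8 at 90 min, against 2219, 1867 and 1066 in controls, a difference of -1.21 ± 0.72. Sld5, a subunit of the GINS complex that joins this helicase, ran the other way and did not overlap, with 1122, 1288 and 1391 at 90 min, against 914.3, 970.9 and 1073 in controls.

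The cell cycle list had 4 higher and 14 lower genes among 18, with a median of -0.30, and -0.05 with the block. Rbf, the retinoblastoma protein that restrains entry into S phase, had 445.1, 505.4 and 494.7 at 90 min, against 1011, 504.7 and 905.6 in controls. The 3 arrays at 90 min and control B were alike, and control A and C were higher. The difference was -0.68 ± 0.36 (SE), and it was similar in the lower set (-0.68) and the higher set (-0.86). It stood at -0.90, -0.61 and -1.08 at 5, 30 and 60 min, against the same controls. Of 7 bright apoptosis genes 4 were higher, with a median of 0.08, but with the block 3 were higher, with a median of -0.02. The effector caspase Dcp-1 had 2729, 4007 and 3842 at 90 min, against 2323, 3332 and 2716 in controls, a difference of 0.33 ± 0.31. The caspase Strica had 712.8, 238.7 and 407 at 90 min, against 540.2, 584.2 and 546.3 in controls, a difference of -0.44 ± 0.48.

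Transcripts loaded by the mother were mostly lower by value at 90 min. Of 33 bright genes of the maternal list, 31 were lower and 2 higher, with a median of -0.55 and 0 called. This depended on the spike-in set: the median was -0.23 with the block, 0.08 in the lower set and -0.71 in the higher set. cact, the inhibitor that keeps the Dorsal protein out of nuclei, had 10070, 1996 and 2612 at 90 min, against 9710, 10530 and 4397 in controls. Within the lower set its arrays were almost equal, and the difference of -1.03 ± 0.66 (SE) was -0.94 within the higher set. tub, an adaptor of the same Toll pathway, had 1393, 328.6 and 423.1 at 90 min, against 1436, 1087 and 828.7 in controls. At 5, 30 and 60 min the list's median stood at -0.77, -0.44 and -0.67, against the same controls. In these bulk samples, fewer cells of a type and less RNA per cell cannot be told apart.

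Markers of the pole cells, which form the germline, had 8 of 9 bright genes lower, with a median of -0.54. It was -0.16 with the block, 0.05 in the lower set and -0.33 in the higher. The list shares genes such as osk, nos, vas and CycB with the maternal list, so their medians are not separate results. zpg, a gap junction protein of germ cells, had 2104, 740.5 and 569.8 at 90 min, against 2924, 988.9 and 2639 in controls. Control B was far below the other controls, and the difference was -1.03 ± 0.78 (SE). piwi, an Argonaute protein that silences transposons in the germline, had 519.8, 159 and 134.2 at 90 min, against 1053, 406.6 and 247.4 in controls, and was lower in both sets (-0.33 in the lower and -0.76 in the higher). AGO3, another germline Argonaute, was the 1 higher member, at 4715, 4509 and 4497 at 90 min, against 4024, 5151 and 921.3 in controls. Control C was far below the other 5 arrays, and the difference of 0.77 ± 0.60 was 0.05 in the lower set and 2.29 in the higher.

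Patterning genes of the embryo were spread widely, and control C was the lowest array for several of them. The gap list had 3 higher and 4 lower bright genes and a median of -0.19, and 0.38 with the block. The pair-rule list had 2 higher of 8 and a median of -0.41, and 0.18 with the block. The block thus turned the direction of both medians. Of 23 bright early zygotic genes 14 were lower, with a median of -0.31, and 0.06 with the block. kni, a gap gene of the abdomen, had 1638, 2483 and 2446 at 90 min, against 929.1, 2225 and 1238 in controls, a difference of 0.65 ± 0.44 (SE). nkd, a segment polarity gene that limits Wingless signalling, had 593.6, 213.6 and 223 at 90 min, against 513.6, 975.3 and 7.287 in controls. Control C was at background there, and without it the difference of 0.93 ± 1.42 became -1.21.

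Genes of the germ layers had medians above 0 over 3 against 3 arrays, and these depended on the spike-in set. The neuroectoderm list had 10 higher of 14 bright genes and a median of 0.32. With the block 14 of 14 were higher and the median was 0.58, but it was -0.11 in the lower set and 1.48 in the higher set, which holds a single control array. D (Dichaete), a Sox transcription factor of the neuroectoderm, had 6479, 5877 and 7790 at 90 min, against 3587, 6989 and 2486 in controls. Control B lay among the arrays at 90 min and the other controls were lower. The difference was 0.75 ± 0.32 (SE), with 0.37 in the lower set and 1.44 in the higher. Tom, a regulator of Notch signalling, had 5461, 12710 and 11080 at 90 min, against 4527, 8579 and 4164 in controls, a difference of 0.75 ± 0.49.

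The endoderm list had 5 higher of 8 and a median of 0.34, the dorsal ectoderm and amnioserosa list 10 of 15 and 0.22, and the mesoderm list 7 of 9 and 0.28. In the lower set these medians were 0.03, 0.06 and -0.12, and in the higher set, with control C as its only control, they were 1.58, 0.89 and 0.48. bowl, a zinc finger protein of the gut primordia, had 313.8, 877.6 and 1252 at 90 min, against 194, 539.8 and 176 in controls, a difference of 1.41 ± 0.71 (SE). byn, the hindgut Brachyury protein, had 277.7, 551.8 and 346.6 at 90 min, against 271.1, 368.3 and 98.08 in controls. In both genes 90 min A lay between control A and control B. Ance, an enzyme of the dorsal ectoderm and amnioserosa, had 636.6, 2094 and 3233 at 90 min, against 540.6, 1202 and 790 in controls, a difference of 1.02 ± 0.70. Cyp310a1, a cytochrome P450 of the mesoderm list, had 380.6, 1764 and 1106 at 90 min, against 286.5, 593.8 and 359.7 in controls. Cellularization genes were balanced, with 7 higher of 15 and a median of -0.01, and -0.12 with the block. Of the Hox list 2 genes were bright, 1 higher and 1 lower, and of the segment polarity list 3, with 2 higher and a median of 0.18. The segment polarity median was 1.06 with the block, -0.25 in the lower set and 2.64 in the higher.

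**Figure D5:**
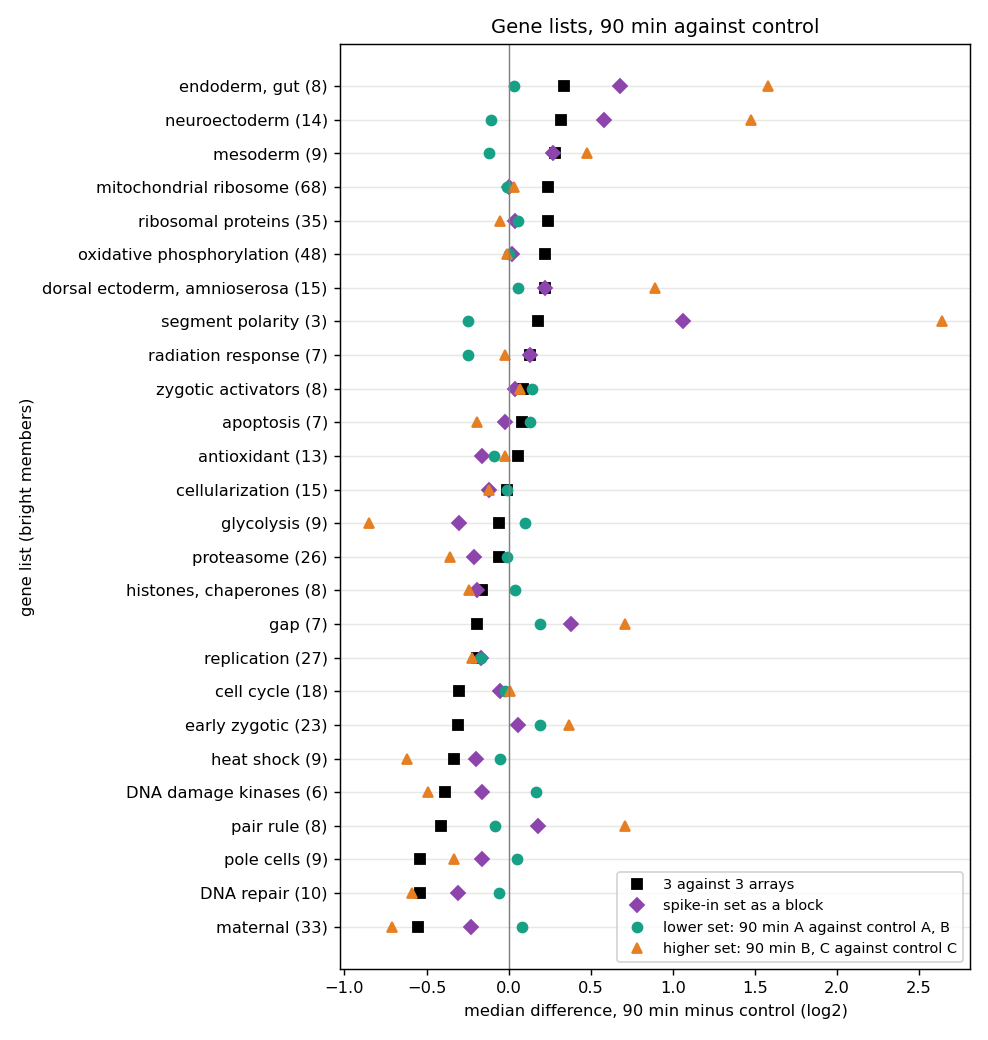
Median log2 difference, 90 min minus control, over the bright genes of each list (number in brackets): squares for 3 against 3 arrays, diamonds with the spike-in set as a block, circles within the lower and triangles within the higher spike-in set. Maternal (-0.55), pole cell (-0.54) and DNA repair (-0.54) lists were lowest over 3 against 3 arrays, while in the lower set their medians were 0.08, 0.05 and -0.06. The maternal and pole cell lists share genes.

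Components of the ribosome and of mitochondria were slightly higher by value over 3 against 3 arrays. Of 35 bright ribosomal protein genes 32 were higher, with a median of 0.24, and of 68 mitochondrial ribosomal genes 55 were higher, also with a median of 0.24. With the spike-in set as a block the medians were 0.04 and -0.00. The mean of the ribosomal list, centred per gene, was -0.34, 0.20 and 0.20 at 90 min, against -0.44, -0.33 and 0.21 in controls, so arrays of the same spike-in set had similar values. RpL37-1 had 20680, 25880 and 27990 at 90 min, against 18380, 19930 and 22410 in controls, a difference of 0.29 ± 0.19 (SE). RpL7-like had 6150, 8813 and 8427 at 90 min, against 5756, 6871 and 3213 in controls, and RpL27 ran the other way by value, with 23190, 7452 and 10950, against 22670, 23960 and 8464. In the mitochondrial list mRpS17 differed by 0.51 ± 0.38 and mRpS30 by -0.38 ± 0.31.

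The oxidative phosphorylation list had 31 higher of 48 bright genes and a median of 0.22, and 0.02 with the block. UQCR-14, a subunit of complex III, had 8214, 14130 and 13770 at 90 min, against 7085, 8873 and 8192 in controls. ND-20 of complex I had 4293, 7384 and 6901 at 90 min, against 3868, 4814 and 3987 in controls. In both genes 90 min B and C stood above every control while 90 min A lay among them, and the differences were 0.54 ± 0.28 (SE) and 0.52 ± 0.28. ATPsynCF6, a coupling factor of the ATP synthase, and ND-B14 of complex I were lower by value, at -0.67 ± 0.35 and -0.84 ± 0.47.

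The proteasome list, which holds Rpt5 and Rpn1, had 11 higher and 15 lower bright genes and a median of -0.06. With the block 21 of 26 were lower, with a median of -0.21. Rpn5, a subunit of the 19S lid, had 7045, 921.7 and 864.7 at 90 min, against 7444, 4822 and 3232 in controls. 90 min A was close to control A, and the difference was -1.46 ± 0.87 (SE). Prosbeta3 of the 20S core differed by -0.85 ± 0.50 and Rpn6 by 0.37 ± 0.35.

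Glycolysis genes had 6 lower of 9 and a median of -0.06, and with the block 9 of 9 were lower with a median of -0.30. The lower set gave a median of 0.10 and the higher set -0.85. Hexokinase Hex-A had 729.9, 354.2 and 281 at 90 min, against 838.9, 507.5 and 848 in controls, a difference of -0.77 ± 0.58 (SE). Heat shock genes had 5 lower of 9 and a median of -0.33, and 8 lower and a median of -0.20 with the block. The small chaperone Hsp27 had 5941, 3441 and 2080 at 90 min, against 8872, 2797 and 10270 in controls. The mitochondrial chaperonin Hsp60A had 2253, 8426 and 4960 at 90 min, against 4439, 1229 and 9932 in controls. In both genes the groups overlapped, with control B low and control C high. Hsc70-3, the chaperone of the endoplasmic reticulum, had 7462, 3827 and 5307 at 90 min, against 8040, 7148 and 7664 in controls, a difference of -0.51 ± 0.33.

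Antioxidant genes had 7 higher of 13 and a median of 0.06, but 6 higher and a median of -0.16 with the block. maf-S, the partner of the oxidative stress factor Cnc, had 3968, 7507 and 6429 at 90 min, against 3434, 4396 and 4539 in controls, a difference of 0.49 ± 0.33 (SE). Thioredoxin reductase, Trxr1, had 2597, 2927 and 2550 at 90 min, against 5180, 1923 and 6146 in controls, a difference of -0.55 ± 0.52. The arrays of Trxr1 at 90 min were close together and lay within the wide range of the controls. The histone and chaperone list had 6 lower of 8 and a median of -0.16. Caf1-180, the large subunit of the chromatin assembly factor, had 4245, 479.7 and 778.1 at 90 min, against 3898, 4235 and 1125 in controls, the same order by spike-in set as hb. Among 8 activators of the zygotic genome 5 were higher, with a median of 0.09, and 0.04 with the block. zld (Zelda), which opens the first zygotic enhancers, had 6954, 3042 and 4856 at 90 min, against 3960, 7765 and 1228 in controls. Trl, the GAGA factor, had 914.2, 823.8 and 1202 at 90 min, against 730.8, 963.1 and 370 in controls, a difference of 0.60 ± 0.39.

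The arrays carried the markers of the labelled stage. Of 12 measured patterning markers 11 were bright, and their summed intensity was 5163 to 13235 at 90 min, against 3084 to 16840 in controls. The level of these markers differed between arrays. The mean of the bright ones, centred per gene, was 0.54, -0.78 and -0.90 at 90 min, against 0.17, 0.95 and -1.95 in controls. Their median difference was -0.15, and 0.44 with the block, with -0.05 in the lower set and 0.86 in the higher. Of markers of parental and later tissues, 0 of 16 eggshell and follicle genes, 0 of 6 adult fat body genes, 0 of 16 gut enzyme genes and 0 of 11 testis genes were bright. Their sums were 252 to 374 at 90 min, against 239 to 375 in controls for the eggshell list, and 60 to 91 at 90 min, against 53 to 159 in controls for the fat body list. The sums of gut enzymes were 274 to 612 at 90 min, against 301 to 723 in controls, and those of testis genes 124 to 219 at 90 min, against 174 to 237 in controls. These sums overlapped between the groups in every list. Blood cell markers had 5 bright of 14, all higher by value with a median of 0.39, and 0.63 with the block, and sums of 2264 to 3887 at 90 min, against 1024 to 4430 in controls. Late embryo markers had 4 bright of 20 with a median of -0.01, and 0.50 with the block, where 4 of 4 were higher, and sums of 1809 to 6465 at 90 min, against 1149 to 8188 in controls.

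The 90 min arrays were also set against the 9 arrays at 5, 30 and 60 min, a difference that holds no control array. Time since irradiation and age at irradiation changed together between these groups and cannot be told apart. No probe set passed here either: 0 of 18769 had an adjusted p under 0.05 in limma (0.0%), the smallest being 0.416, and 454 had an unadjusted p under 0.05, 24 of them bright. The bright genes with the smallest p were led by ovo, a transcription factor of the germline and epidermis, which was higher at 90 min than at the other times by 0.99 ± 0.34 (SE; unadjusted p = 0.00967 and adjusted p = 0.999 in limma). Its intensity at 90 min was 1594, 2306 and 1449, against 2698, 1222 and 1848 in controls, so that 90 min and control differed by only -0.06 while 5, 30 and 60 min stood at -1.52, -0.70 and -0.95 against control. galectin, a sugar-binding protein, Idh, the isocitrate dehydrogenase that depends on NADP, CG9641 and CG6293 were also nearer to control at 90 min than at the other times, with 0.76 ± 0.30, 0.82 ± 0.34, 1.47 ± 0.59 and 1.73 ± 0.74 against the other times. Against control the last pair differed at 90 min by -0.12 ± 0.73 and -0.15 ± 0.90.

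The 5 genes lower at 90 min than at the other times included Nnp-1, a nucleolar protein, with -0.60 ± 0.22 (SE). It had 5545, 3320 and 3578 at 90 min, against 5426, 7248 and 4894 in controls. 90 min A was above 2 of the controls while 90 min B and C were below all 3. Cdc37, which brings protein kinases to the chaperone Hsp90, had 3464, 1589 and 1773 at 90 min, against 3211, 3589 and 3362 in controls, and differed from the other times by -0.61 ± 0.26. Srp54k of the signal recognition particle and Caf1-55, a histone chaperone, differed from the other times by -0.56 ± 0.25 and -0.46 ± 0.20. TwdlF, of a family of cuticle proteins, differed by -2.99 ± 1.30. Its 90 min B array was at background, and without that array the difference was -0.95. TwdlF had 339.1, 2.787 and 200.1 at 90 min, against 1173, 1071 and 48.69 in controls.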

How the data were processed

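Expression was measured in 15 samples on 1 Affymetrix array each, from 3 µg of total RNA. The authors deposited array intensity values on a linear scale. The submitters' processing notes name MAS5, which summarises the probes of a probe set; neither its version nor the scaling is given in the sources used here. With 2% of values trimmed from each end, the mean per array was 500.01 to 500.02, so the deposited scaling was kept. The median intensity per array was 33.3 to 39.2 at 90 min and 29.5 to 33.0 in controls. The number of arrays limits the precision.

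Values were taken as log2(intensity + 1), computed here from the deposited table, which shrinks differences of the dimmest probe sets. Dim probe sets still had the wider spread, with a median SD of the fit of 1.022, against 0.579 for bright ones. Differences of at least 1 were seen in 3116 of 13133 dim probe sets and in 274 of 5636 bright ones. Of 18952 probe sets, 183 controls were left out and 18769 tested; 13646 had 1 gene symbol in the platform table, 402 several and 4721 none. RefSeq (13543 symbols looked up) changed 0. Where a gene had several probe sets the one with the highest mean was used. limma 3.58.1 (R 4.3.3) was run with lmFit and with eBayes allowing a trend in intensity, on a model of 5 groups over all the arrays. P-values were two-sided and adjusted over all probe sets by the Benjamini-Hochberg method and a threshold of 0.05. The script was tested on simulated data. The labels call the replicates biological; what else separated the pools is not stated, so p-values measure the spread between these samples.

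Genes were named by rule: the 10 bright genes in each direction with groups that do not overlap and the smallest p, the 5 in each direction against the other times, all radiation-response genes, and, in each list and direction, genes from the 2 with the smallest p. The members, lists and rules were chosen with earlier results of these data known. The spike-in sets were defined from 18 control probe sets. Whether the letters pair the groups was checked over bright probe sets, through the correlation between arrays of a letter after each group's mean was subtracted. It was 0.688, -0.629 and 0.602 for A, B and C, so the letters were not taken to pair the groups. The arrays of letter B lay in different spike-in sets, while those of A and of C shared a set. The check therefore cannot tell unpaired letters from letters split by the spike-in set.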

Additional observations from a re-analysis of the deposited data

How the results depend on the processing

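The count of calls stayed at 0 for 90 min against control, over all and over bright probe sets, in every alternative but the higher spike-in set alone. There 1 probe set was called in both counts (CG9184, 4.07, adjusted p = 0.042 in limma). With the replicate block 0 probe sets were called and 1517 had an unadjusted p under 0.05. Whether the letters pair these groups could not be settled from the values. Over the other alternatives the number with an unadjusted p under 0.05 lay between 24 and 1674. The 24 came from the 5636 probe sets kept by a filter at a mean log2 of 8. The 1674 came from the replicate block with quantile normalization. Quantile normalization alone gave 540, a pseudocount of 16 gave 470, and leaving out each replicate in turn gave 409 to 1280. Against the other irradiated times 0 were called in every alternative, with a lowest adjusted p of 0.085. Under quantile normalization 611 probe sets were higher without overlap and 501 lower, against 795 and 286 as deposited. The within-set and quantile counts of probe sets that do not overlap were alternatives chosen after seeing the data.

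Single genes changed sign, and the cause was not tested. Within the lower spike-in set alone, log2 differences turned to 0.06 for Caf1-55, -0.31 for Ku80, -0.27 for Traf4, 0.03 for mre11, 0.25 for mu2, 0.27 for Pms2, -0.03 for Dcp-1, 0.34 for Strica, 0.20 for Mcm10, -0.34 for Ance, 0.22 for hb, -0.25 for nkd, -0.12 for Cyp310a1, -0.19 for Tom, -0.04 for bowl, -0.19 for byn, 0.16 for tub, 0.31 for zpg, -0.03 for RpL7-like, 0.02 for mRpS30, -0.01 for ND-20, -0.02 for Rpn6, 0.05 for Prosbeta3, 0.23 for Rpn5, 0.16 for Hex-A, -0.05 for Hsp60A, 0.25 for Hsp27, 0.06 for Caf1-180, 0.16 for Stat92E, -0.96 for CG9184 and -0.18 for Obp99a. Within the higher set alone they turned to 0.89 for egr, -0.39 for Ku80, -0.02 for p53, 0.09 for RpL27 and -0.62 for Hsp60A. With the set as a block they turned to 0.18 for egr, -0.21 for Ku80, 0.03 for RpL27 and -0.25 for Hsp60A. Leaving out each replicate in turn gave -1.62 to 0.24 for egr (positive without control B), -0.31 to 0.62 for Ku80 (negative without 90 min B or control B), -0.08 to 1.32 for Traf4, -1.21 to 2.23 for nkd and -0.24 to 1.09 for zld (all 3 negative without control C), and -0.55 to 0.96 for Hsp60A (negative without 90 min B or control B). The lower set holds 1 array at 90 min and the higher set 1 control, so each within-set value rests on a lone array.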

Other observations

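The values of 2 further genes are given because of their size; they were chosen after their values were seen. CG9184 had intensities of 242.2, 10310 and 5891 at 90 min, against 359.2, 623.1 and 463.8 in controls. Of these 6 arrays it was high in 90 min B and C, and it differed by 2.38 ± 1.49 (SE; adjusted p = 0.999 in limma). At 5, 30 and 60 min CG9184 stood at 1.72, 1.10 and 2.30 above the same controls, with highest intensities of 2605, 3067 and 6838, so high arrays were not limited to 90 min. Obp99a, an odorant-binding protein, had 1113, 8463 and 18470 at 90 min, against 480.7, 3318 and 3009 in controls. It was the 1 bright gene among 159 chemoreceptor and odorant-binding genes, and differed by 1.73 ± 1.19 (SE; adjusted p = 0.999 in limma). At 5, 30 and 60 min Obp99a stood at 1.39, 1.29 and 1.50 above the same controls.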
